A study of Mus musculus with 6 samples.

Results

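The genes described here encode the machinery that copies DNA and the regulators that open S phase. They were chosen by symbol from a list of 51 genes, and 50 of them were among the 12107 genes of the count table. Rfc2, a subunit of the clamp loader, was not analysed here. Each gene had 3 windows of RNA polymerase II (Pol II) reads, which gave 150 member regions among 36321 regions in all. The promoter window held the 400 bases ahead of the transcription start (TSS) and the first 100 bases of the gene. The gene body came next and stopped 100 bases short of the transcription end site (TES), and the TES region ran from there to 2000 bases past the TES.

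Pol II on chromatin was measured by POLR2A ChIP-seq, with an antibody (D8L4Y) to the N-terminal domain of POLR2A, the largest Pol II subunit. The sample was mouse NPCs, neural precursor cells that proliferate in culture as neurospheres. There were 3 Armc5(-/-) libraries (KO) and 3 wild-type libraries (WT), which the methods of the study describe as biological replicate pairs and which are numbered 1 to 3 here. ARMC5 is the substrate adaptor of a ubiquitin ligase that acts on POLR2A. Both groups came from ganglionic eminences at e13.5 and were second passage neurospheres, grown with EGF at 20 ng/ml, fixed in 1% formaldehyde and precipitated from equal amounts of chromatin. The labels give the strain of both groups as 129 sv X CD1, while the methods of the study name a CD1 x C57BL/6 F1 background. The sources used here do not say how many fetuses or litters stood behind a library.

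The KO libraries held between 16056262 and 25199455 reads over all regions, and the WT libraries between 14528870 and 23808344. WT replicate 3 and WT replicate 1 stood apart. In WT replicate 3 the 4 measured Y-linked genes summed to 0.619 CPM (reads of a region scaled to library size). Elsewhere the sums were 145, 125 and 124 CPM in KO replicates 1 to 3. In WT replicates 1 and 2 they were 234 and 197 CPM. WT replicate 1 had the lowest gene body level of most replication genes, as described below. Promoters took 6.88% of the reads in KO replicate 3 and 6.04% in WT replicate 3, against 10.9% to 12.2% in the libraries of pairs 1 and 2. Reads at Armc5 itself were not analysed here. Of the markers that define neural precursors, 12 of 14 were measured, and their summed gene body signal ranged from 365 to 713 CPM in KO and from 320 to 692 CPM in WT. None of the 12 was called in any region, and their gene body log2 fold changes (KO over WT) ranged from -0.19 to 0.50. At an unadjusted p under 0.05, 3 gene bodies were higher in KO, against 4.82% of all gene bodies, and 1 was lower, against 3.59%. In their TES regions 4 were lower at that p, against 4.84% of all TES regions, and none was higher, against 1.4%. At their promoters none was at that p in either direction, and 8 of the 12 values were below 0, while 54.8% of all promoters were above 0. The gene body of Sox2 averaged 21.9 ± 15.2 CPM in KO and 22.5 ± 14.6 CPM in WT, and that of Nes 58.5 ± 14.8 CPM in KO and 51.8 ± 11.4 CPM in WT (SD, n = 3 each), where Nes was higher in KO in all 3 pairs (0.19 ± 0.08, adjusted p = 0.551). Gene body signal was also present for 7 of 9 neuron markers (1036 to 1359 CPM in KO, 1099 to 1448 CPM in WT), 3 of 6 astrocyte markers (311 to 485 CPM in KO, 327 to 420.1 CPM in WT) and 5 of 7 oligodendrocyte lineage markers (250.3 to 416 CPM in KO, 249 to 440 CPM in WT). These sums are not scaled to gene length or to the number of genes, so they do not rank the cell types. The part of such cells in the results was not tested. None of 9 microglia and blood cell markers, none of 5 mesenchymal markers and 1 of 6 endothelial and mural markers were among the genes measured.

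Replication is prepared in G1, when the origin recognition complex, CDC6 and CDT1 load the MCM helicase on origins, and it starts in S phase, when CDC45 and GINS turn the loaded rings into moving helicases. DNA polymerases, the sliding clamp PCNA and its loader then copy both strands, while ribonucleotide reductase supplies the nucleotides. Transcription of many of these genes depends on E2F factors and peaks as cells pass from G1 into S phase, and neural precursors are cells that divide repeatedly.

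Promoter sequences show a feature that the choice of genes did not use. RefSeq promoters of GRCm38.p6, from 250 bases before to 50 bases after each start, were found for 42 of the 50 genes. An E2F motif, searched on both strands in 4 forms (TTTGGCGC, TTTCGCGC, TTTGCCGC and TTTCCCGC), was present in 15 of these 42 promoters (35.7%). The share was 4.39% over the 9505 genes of the count table that have a promoter there and 2.32% over all 27025 genes. With TTTGGCGC and TTTCGCGC alone it was 10 of 42 (23.8%), against 1.68% of the promoters of the count table. The 15 promoters belonged to Orc1, Orc3, Cdc6, Cdt1, Mcm3, Mcm5, Mcm6, Mcm7, Gins3, Pola1, Pold1, Pold3, Pole2, Rfc3 and E2f2. CCAAT was in 26 of the 42 (61.9%, against 39.4% over the count table), the GC box GGGCGG in 31 (73.8%, against 68.0%) and the cell cycle homology region TTTGAA in 4 (9.52%, against 10.8%). None of these motifs contains another, and a match is a description of letters, not of a bound site.

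Promoters of 5 genes whose Pol II is described below are shown from 5′ to 3′, to set a promoter with several E2F motifs beside those with 1 and with none. Capitals mark E2F matches, and in Pcna, which has no E2F match, the CCAAT motif on the opposite strand. They are E2f2 at chr4:136172024-136172323 (plus strand), Mcm6 at chr1:128359656-128359955 (minus strand), Cdt1 at chr8:122567765-122568064 (plus strand), Rfc3 at chr5:151651159-151651458 (minus strand) and Pcna at chr2:132253131-132253430 (minus strand), all in GRCm38.
E2f2 promoter: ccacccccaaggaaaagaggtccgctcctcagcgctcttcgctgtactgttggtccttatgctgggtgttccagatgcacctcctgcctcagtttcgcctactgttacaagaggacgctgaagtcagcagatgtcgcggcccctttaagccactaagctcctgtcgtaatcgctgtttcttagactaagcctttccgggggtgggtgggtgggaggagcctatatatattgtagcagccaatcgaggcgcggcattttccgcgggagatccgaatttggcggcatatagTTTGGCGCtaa
Mcm6 promoter: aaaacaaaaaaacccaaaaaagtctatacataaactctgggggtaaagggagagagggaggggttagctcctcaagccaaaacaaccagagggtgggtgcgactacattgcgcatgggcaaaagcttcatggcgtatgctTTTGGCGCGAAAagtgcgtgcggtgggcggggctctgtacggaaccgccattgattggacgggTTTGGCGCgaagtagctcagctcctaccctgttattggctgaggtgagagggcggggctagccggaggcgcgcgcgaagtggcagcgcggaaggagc
Cdt1 promoter: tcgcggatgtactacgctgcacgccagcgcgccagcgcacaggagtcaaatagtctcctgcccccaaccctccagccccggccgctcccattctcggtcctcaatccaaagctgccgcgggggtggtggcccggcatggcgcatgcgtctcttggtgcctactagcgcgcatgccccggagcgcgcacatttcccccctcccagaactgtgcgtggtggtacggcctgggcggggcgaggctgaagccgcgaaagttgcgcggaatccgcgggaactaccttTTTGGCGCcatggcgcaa
Rfc3 promoter: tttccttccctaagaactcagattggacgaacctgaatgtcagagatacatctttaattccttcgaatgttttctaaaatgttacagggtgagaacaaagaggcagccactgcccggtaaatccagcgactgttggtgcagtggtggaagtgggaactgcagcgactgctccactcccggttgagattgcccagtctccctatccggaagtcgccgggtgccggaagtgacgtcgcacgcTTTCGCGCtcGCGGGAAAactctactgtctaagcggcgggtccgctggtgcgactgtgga
Pcna promoter: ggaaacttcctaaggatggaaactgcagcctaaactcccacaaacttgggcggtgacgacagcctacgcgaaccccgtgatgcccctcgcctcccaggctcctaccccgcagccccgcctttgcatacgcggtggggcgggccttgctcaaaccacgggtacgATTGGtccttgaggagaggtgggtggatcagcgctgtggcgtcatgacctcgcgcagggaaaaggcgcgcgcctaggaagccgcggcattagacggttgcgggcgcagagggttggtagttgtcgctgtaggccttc

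Mcm6 held 3 matches, of which a pair overlaps in a single run of capitals. Its matches begin 110, 106 and 47 bases before the RefSeq start. Rfc3 held 2 matches around its start, Cdt1 had 1 that begins at base 33 of the transcript and E2f2 had 1 that begins at base 40.

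No member region passed the test. The fit was limma-voom over all 36321 regions with the replicate pair as a block, two-sided, with Benjamini-Hochberg adjustment, and regions with adjusted p under 0.1 were called. It called 0 of 50 member gene bodies, against 0.206% of all gene bodies, 0 of 50 promoters, against 0.173%, and 0 of 50 TES regions, against 0.0248%. The edgeR quasi-likelihood test and DESeq2 also called 0 in each kind of region. At an unadjusted p under 0.05, 15 gene bodies, 8 promoters and 8 TES regions were higher in KO and none was lower. In bulk chromatin, a change in the share of cells in S phase and a change in Pol II per cell cannot be told apart. Neither was measured here. By flow cytometry, the study found fewer KO than WT NPCs in S phase at most times after release from a late G1 block.

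The gene bodies leaned to KO as a group, with the widest lean in pair 1, as described below. The log2 fold change, KO over WT, was above 0 for 45 of the 50 gene bodies, with a median of 0.20, while the median over all 12107 gene bodies was -0.01 and 45.3% of them were above 0. The 15 gene bodies higher in KO at p under 0.05 stand beside 4.82% of all gene bodies, and the 0 lower ones beside 3.59%. In 19 of the 50 all 3 pairs were higher in KO, against 13.7% of all gene bodies, and in 1, Rfc3, every KO library lay above every WT library, against 1.5%. The member values ranged from -0.19 for Gins2 to 0.62 for Rrm2, and the median SE was 0.12.

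Promoters and TES regions had smaller counts. At promoters, 39 of 50 log2 fold changes were above 0, with a median of 0.19 against 0.03 over all promoters. The 8 promoters higher in KO at p under 0.05 stand beside 7.55% of all promoters and the 0 lower ones beside 2.4%. All 3 pairs were higher in 17, against 18% of all promoters, and groups did not overlap in 9, against 2.24%. At TES regions, 38 of 50 were above 0, with a median of 0.15 against -0.08 over all TES regions. The 8 higher ones stand beside 1.4%, the 0 lower ones beside 4.84%, the 13 with all 3 pairs higher beside 7.86%, and the 1 without overlap, Rrm1, beside 0.809%. Without pair 1 the promoter median was 0.03, with 29 of 50 above 0, 5 higher and 1 lower at p under 0.05. The TES median without pair 1 was 0.05, with 29 of 50 above 0 and 2 higher at p under 0.05.

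The 3 replicate pairs differed. In pair 1 the median gene body ratio of the 50 genes was 0.51 and 43 were higher in KO, while the median of all genes was -0.02. In pair 2 the median was 0.07, with 31 higher, and in pair 3 it was 0.05, with 32 higher, beside medians over all genes of 0.02 and -0.04. Promoters gave 0.41, 0.03 and 0.09 in pairs 1 to 3, beside 0.09, 0.01 and -0.08 over all genes. TES regions gave 0.32, 0.07 and 0.04, beside -0.13, -0.06 and -0.03.

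**Figure D1:**
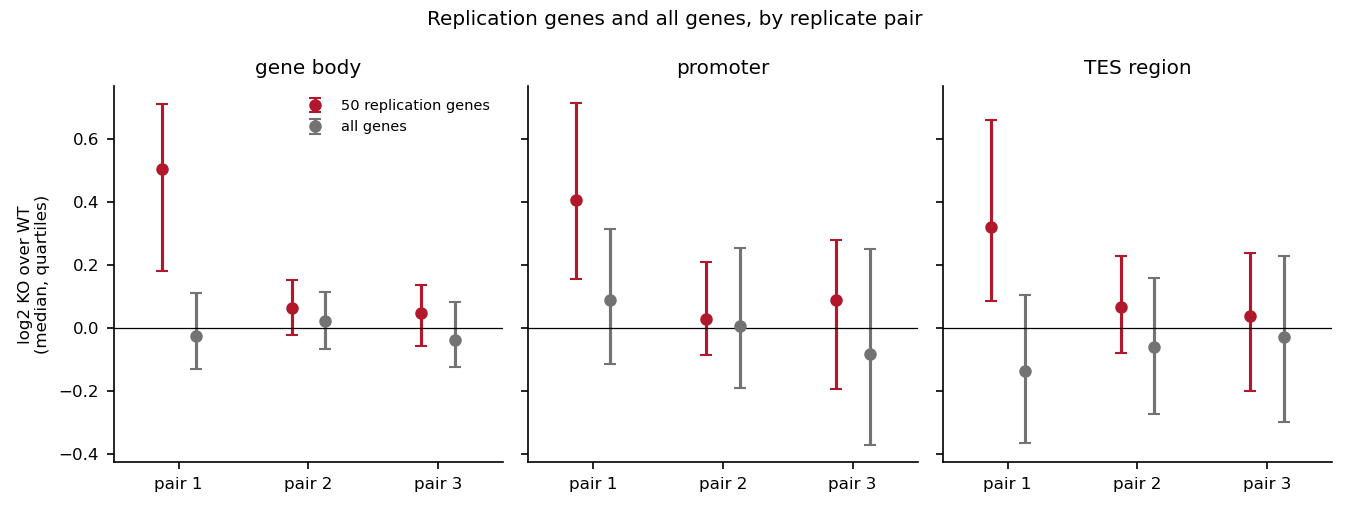
Log2 ratio of Pol II, KO over WT, in each replicate pair, for the 50 replication genes (red) and all 12107 genes (grey), as points at the median with bars from the lower to the upper quartile. In gene bodies the red median is 0.51 in pair 1 and 0.07 and 0.05 in pairs 2 and 3.

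WT replicate 1 was the lowest library for most members. For 38 of the 50 genes the lowest gene body level of all 6 libraries was in WT replicate 1, while 22.4% of all genes had their lowest level there. KO replicate 1 was the lowest library for 0 members and for 26.4% of all genes. Summed gene body signal over the 50 genes was 1878, 1793 and 2505 CPM in KO replicates 1 to 3. In WT replicates 1 to 3 it was 1501, 1679 and 2576 CPM. The KO sums were thus above their WT partners in pairs 1 and 2 and below in pair 3. In pair 3 this order rests on Pola1, with 314 CPM in KO and 437 CPM in WT, a wider gap than that of the sums. Among the 49 genes without Pola1 the pair 3 median was 0.05, with 32 above 0. Without pair 1 the median over member gene bodies was 0.07, 35 of 50 were above 0, and 1 was higher at p under 0.05, against 5.01% of all gene bodies in that fit. In the blocked fit a library without its partner adds nothing to the difference, so leaving out KO replicate 1 or WT replicate 1 alone gave nearly the same median (0.062 each) and does not separate the 2 libraries. What part that library has in the difference was not tested further.

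**Figure D2:**
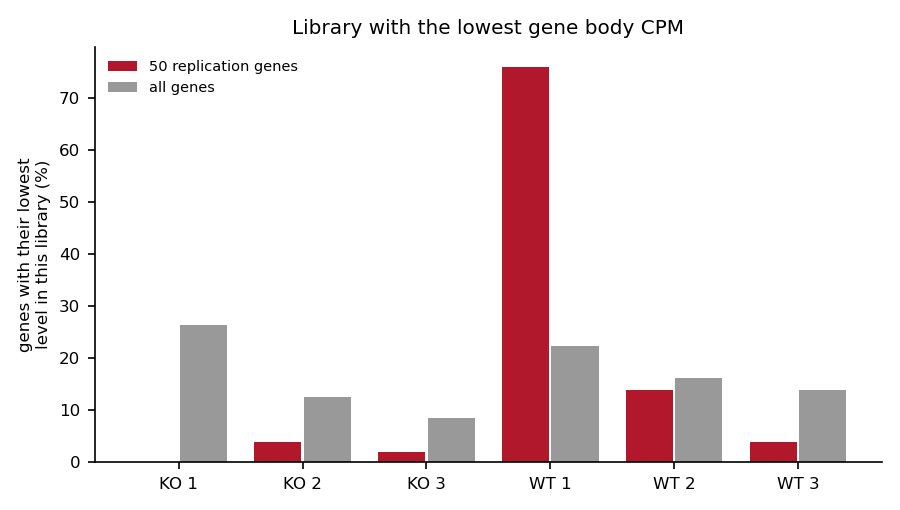
Share of genes whose lowest gene body CPM was in a given library, for the 50 replication genes (red bars) and all 12107 genes (grey bars), with KO libraries on the left. WT replicate 1 holds 38 of the 50 replication genes, while KO replicate 1 holds none of them.

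The same library was low for other cell cycle genes. All 25 measured G2/M genes had their lowest gene body level in WT replicate 1, and their summed signal ranged from 726 to 1096 CPM in KO and from 471 to 1127 CPM in WT. Of 66 listed replication-dependent histone genes, whose transcription is tied to S phase, 36 were measured. In 28 of the 36 the lowest level was in WT replicate 1, with sums of 916 to 953 CPM in KO and 490 to 841 CPM in WT. Histone genes had a median gene body value of 0.58, with pair medians of 1.22, 0.14 and 0.51. Of the 36, 4 passed the test, against 0.206% of all gene bodies. Of 53 other replication genes 0 passed, and their pair medians were 0.41, 0.03 and 0.01. At p under 0.05, 13 of them were higher, against 4.82% of all gene bodies, and 0 lower, against 3.59%. Of 12 genes of p21 and p53 arrest 2 passed, both higher in KO, again beside 0.206%, and their pair medians were 0.30, 0.23 and 0.47. Cdkn1a, which encodes the cell cycle inhibitor p21, was among them, with 56.4, 68.6 and 58.0 CPM in the gene body in KO replicates 1 to 3, against 39.8, 46.5 and 41.2 CPM in WT (log2 fold change 0.52 ± 0.07, adjusted p = 0.0395, limma). Those lists were chosen with results of these data known.

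**Figure D3:**
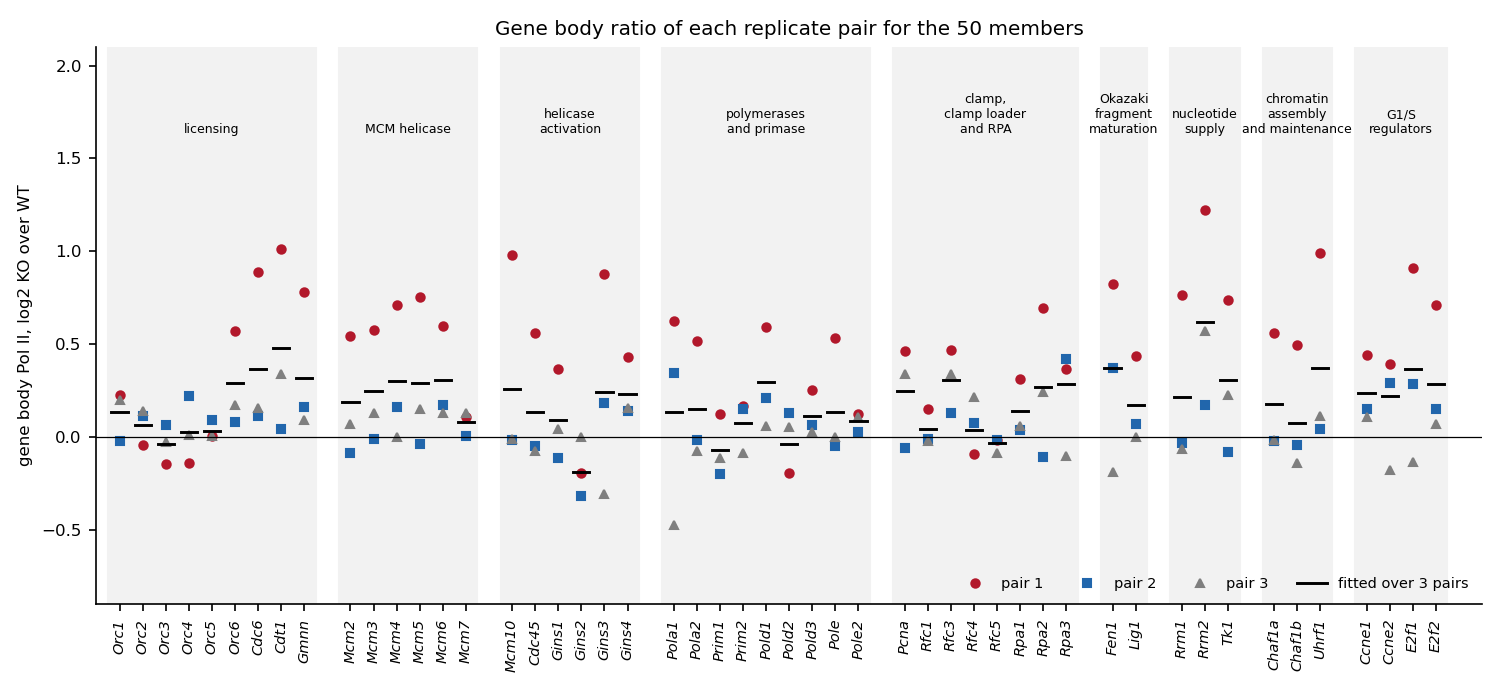
Log2 ratio of gene body Pol II, KO over WT, for each of the 50 genes, grouped by role, with pair 1 as red circles, pair 2 as blue squares, pair 3 as grey triangles and the value fitted over the 3 pairs as a black line. Pair 1 is the highest of the 3 pairs for most genes, with 1.22 for Rrm2 at the top, and Gins2 has the lowest fitted value, -0.19.

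No region of the 9 licensing genes was called. Of their gene bodies 8 were above 0, and 4 (Cdt1, Cdc6, Gmnn and Orc6) were higher at p under 0.05. Cdt1, which brings the helicase to origins, had 13.2, 9.21 and 13.2 CPM in the gene body in KO replicates 1 to 3, against 6.54, 8.94 and 10.4 CPM in WT replicates 1 to 3. The groups overlapped, since KO replicate 2 lay below WT replicate 3 (log2 fold change 0.48 ± 0.18 SE, adjusted p = 0.491). Its window overlaps the annotated gene Gm20388 on the same strand, and its promoter averaged 12.5 ± 4.44 CPM in KO and 13.45 ± 3.65 CPM in WT. Cdc6, the ATPase that works with CDT1, had 19.5, 18.4 and 29.6 CPM in the gene body in KO, against 10.5, 17.0 and 26.6 CPM in WT. Every KO library was above its own partner, with most of the distance in pair 1 (0.37 ± 0.14, adjusted p = 0.524). Gmnn, which encodes geminin, the inhibitor of CDT1, had a gene body value of 0.32 ± 0.14 (adjusted p = 0.593).

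The subunits of the origin recognition complex were nearer to 0. Gene body values were 0.13 for Orc1, 0.06 for Orc2, -0.04 for Orc3, 0.03 for Orc4 and 0.03 for Orc5. Orc6, the smallest subunit, was at 0.29 ± 0.11 in the gene body (adjusted p = 0.541) and 0.30 ± 0.13 at the promoter (adjusted p = 0.578). Both of these Orc6 windows overlap Vps35 on the opposite strand. The Orc4 promoter was the lowest of the group, at -0.22 ± 0.22.

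All 6 subunits of the MCM helicase had gene body and promoter values above 0. In gene bodies the median was 0.27, and the pair medians were 0.59, -0.0017 and 0.13. Mcm6 had 40.1, 32.7 and 54.4 CPM in the gene body in KO, against 26.5, 29.0 and 49.6 CPM in WT, and pair 3 was the highest pair in both groups. Each KO library lay above its partner (0.31 ± 0.10, adjusted p = 0.436). Mcm4 had 8.57, 7.91 and 6.44 CPM at the promoter in KO, against 4.74, 5.58 and 3.90 CPM in WT. The groups did not overlap, and the pair ratios of 0.85, 0.50 and 0.72 were all higher in KO (0.68 ± 0.16, adjusted p = 0.201). The Mcm7 promoter had the same order, with an average of 3.46 ± 0.56 CPM in KO and 2.38 ± 0.29 CPM in WT (0.50 ± 0.21, adjusted p = 0.566). That window overlaps Ap4m1 on the opposite strand. The nearest RefSeq start of Mcm7 lies 539 bases inside the gene by GENCODE, outside the counted promoter window. The gene body of Mcm7 was at 0.08 ± 0.07.

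**Figure D4:**
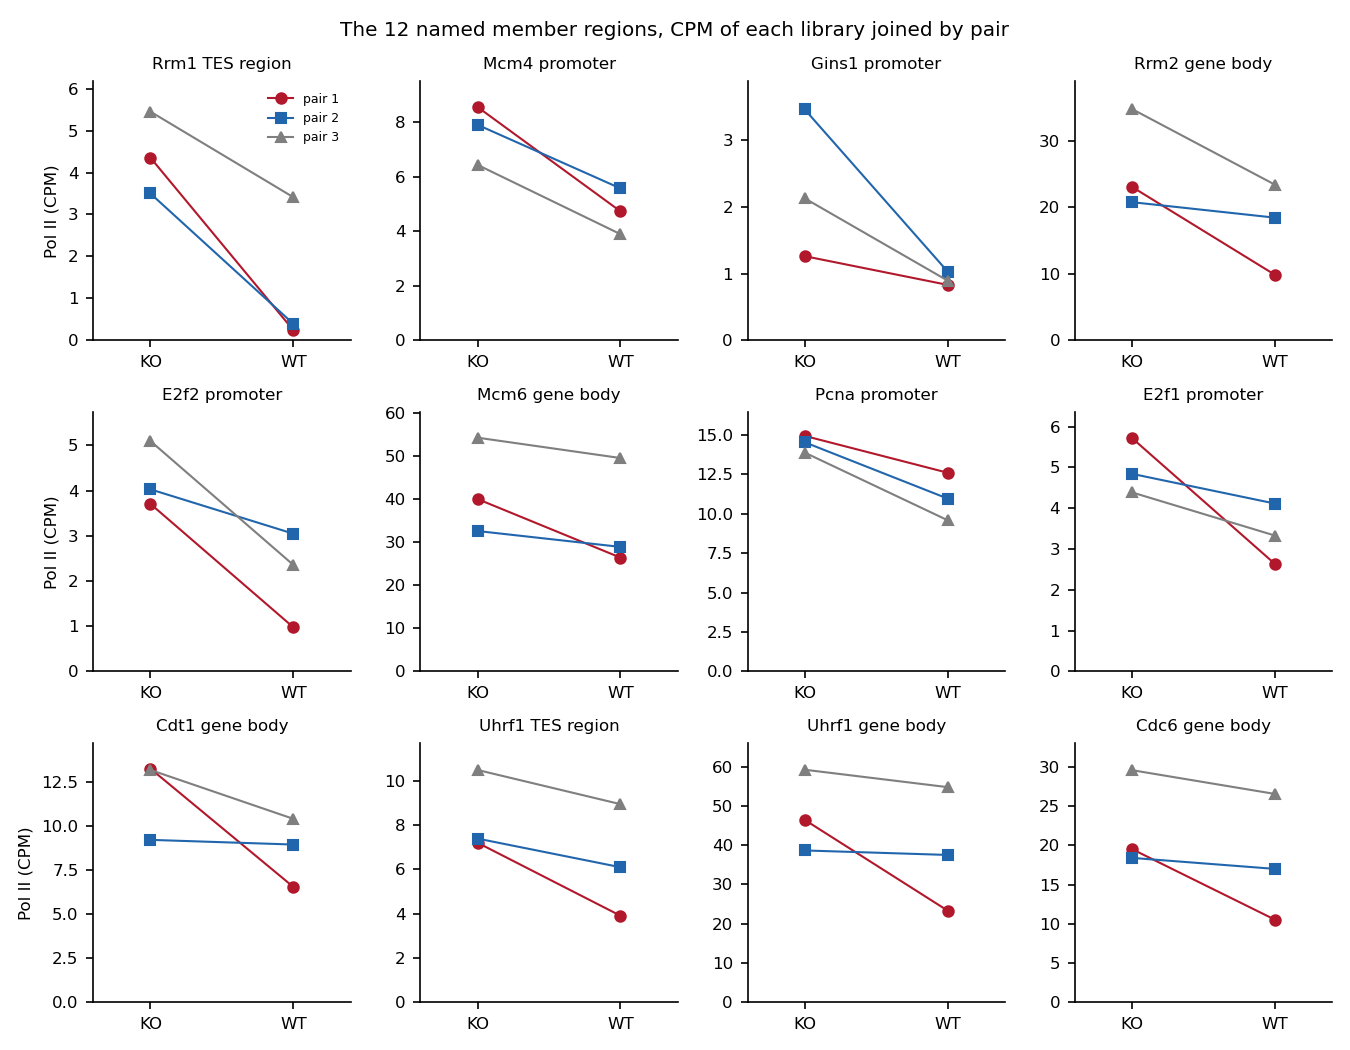
Pol II in CPM in each library, KO on the left and WT on the right of each panel, with lines that join the libraries of a pair, for the 12 member regions with the smallest p and all 3 pairs higher in KO. In the Mcm4 promoter the KO libraries lie between 6.44 and 8.57 CPM and the WT libraries between 3.90 and 5.58 CPM.

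Among genes of helicase activation the promoter of Gins1 had the smallest p. Gins1, a subunit of the GINS complex, had 1.26, 3.45 and 2.12 CPM at the promoter in KO, against 0.83, 1.03 and 0.894 CPM in WT, which rested on 35, 72 and 30 reads in KO and 17, 26 and 11 reads in WT. Groups did not overlap, and pair 2 was the widest (1.29 ± 0.30, adjusted p = 0.213). Its gene body was at 0.09 ± 0.11. Without pair 1 the Gins1 promoter was the 1 member promoter of 50 that was called (adjusted p = 0.0262), in a fit that called 2.03% of all promoters, so that the members' share was near the background. The fits without KO replicate 1 or WT replicate 1, which take out the same pair, called it too (adjusted p = 0.00298 and 0.00317) along with 2.94% and 2.93% of all promoters. Over the other alternatives that gave one its adjusted p lay between 0.113 and 1.00. Gins2 had the lowest gene body value of the members, with 23.2, 17.2 and 21.7 CPM in KO, against 26.5, 21.4 and 21.7 CPM in WT (-0.19 ± 0.10, adjusted p = 0.666). Its window overlaps Gse1 and Gm20388 on the opposite strand, and ChIP reads carry no strand. Gins3 had the widest spread between pairs among member gene bodies, with ratios of 0.88, 0.19 and -0.30, from 10.3, 11.7 and 12.96 CPM in KO and 5.62, 10.2 and 16.0 CPM in WT (0.24 ± 0.18, adjusted p = 0.770). Without pair 1, KO replicate 1 or WT replicate 1 its value was -0.02, -0.03 and -0.03. Its TES region was at 0.50 ± 0.21. Cdc45, Mcm10 and Gins4 had gene body values of 0.14, 0.26 and 0.23, and none of them was at p under 0.05 in any region. The TES region of Mcm10 had the lowest value of all member regions, -0.37 ± 0.23 (adjusted p = 0.716, limma), and was lower in KO in all 3 pairs.

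Among polymerases and primase, 7 of 9 gene bodies were above 0 and 1 was at p under 0.05. Pold1, the catalytic subunit of DNA polymerase delta, had 21.3, 18.7 and 26.3 CPM in KO, against 14.1, 16.1 and 25.3 CPM in WT (0.30 ± 0.12, adjusted p = 0.545). The groups overlapped through WT replicate 3. Pola1, the catalytic subunit of polymerase alpha and the only X-linked member, had the highest gene body level, with 170, 207 and 314 CPM in KO, against 110, 163 and 437 CPM in WT (0.13 ± 0.14, adjusted p = 0.837). It was higher in KO in pairs 1 and 2 and lower in pair 3, where WT replicate 3 is the library without Y-linked signal. Without pair 3 its value was 0.49 (adjusted p = 0.00133), and without pair 1 it was -0.07. The Y-linked sums were also unequal within pairs 1 and 2, at 145 and 125 CPM in KO against 234 and 197 CPM in WT. Leaving out pair 3 therefore leaves groups that differ in Y-linked signal. Pole and Pole2, subunits of polymerase epsilon, had promoter values of 0.41 ± 0.22 and 0.36 ± 0.20 and gene body values of 0.14 and 0.09. Prim1 and Pold2 were at -0.07 and -0.04 in the gene body.

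For the sliding clamp the groups separated at the promoter. Pcna had 14.9, 14.5 and 13.9 CPM at the promoter in KO, against 12.6, 11.0 and 9.59 CPM in WT. The groups did not overlap, and the KO libraries lay closer together than the WT libraries (0.37 ± 0.12, adjusted p = 0.438). The antisense gene AV099323 overlaps this window, and the nearest RefSeq start of Pcna lies 134 bases inside the gene by GENCODE, past the end of the window. In the gene body Pcna was at 0.25 ± 0.11 (adjusted p = 0.598). Rfc3, a subunit of the clamp loader, had 12.8, 12.5 and 15.7 CPM in the gene body in KO, against 9.28, 11.4 and 12.4 CPM in WT (0.31 ± 0.13, adjusted p = 0.571), so that KO replicate 2 lay just above WT replicate 3 and the separation is thin. Rfc1, Rfc4 and Rfc5 had gene body values of 0.04, 0.04 and -0.03. The subunits of RPA, which coats single-stranded DNA, were at 0.14 for Rpa1, 0.27 for Rpa2 and 0.29 for Rpa3, and Rpa3 had the lowest gene body level of all members, with 6.44, 7.48 and 4.39 CPM in KO and 4.98, 5.58 and 4.71 CPM in WT.

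For the enzymes that join Okazaki fragments, Fen1, the flap nuclease, had 12.99, 10.9 and 11.5 CPM in the gene body in KO, against 7.33, 8.43 and 13.1 CPM in WT. It was higher in KO in pairs 1 and 2 and lower in pair 3 (0.37 ± 0.17, adjusted p = 0.602), and its window overlaps Tmem258 on the opposite strand. Lig1, the ligase, was at 0.17 ± 0.09 in the gene body.

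Nucleotide supply held the largest gene body and TES values among the members. Rrm2, the small subunit of ribonucleotide reductase, had 23.1, 20.8 and 34.8 CPM in the gene body in KO, against 9.86, 18.4 and 23.4 CPM in WT. All 3 pairs were higher in KO, at 1.22, 0.17 and 0.57, but the groups overlapped (0.62 ± 0.16, adjusted p = 0.264). Without pair 3 its adjusted p was 0.0614, it passed the test as well without KO replicate 2, KO replicate 3 or WT replicate 3 (the lowest, without WT replicate 3, was 0.0458), and over the other alternatives the adjusted p lay between 0.130 and 1.00. The Rrm2 TES region was at 0.72 ± 0.25 (adjusted p = 0.446). Tk1, thymidine kinase, was at 0.31 ± 0.13 in the gene body (adjusted p = 0.578).

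Rrm1, the large subunit of the same enzyme, stood out at its TES region, at chr7:102469671-102471771 of GRCm38 by GENCODE vM21, where no other gene is annotated. It had 121, 73 and 77 reads there in KO replicates 1 to 3, against 5, 10 and 42 reads in WT replicates 1 to 3. In CPM these were 4.35, 3.50 and 5.45 in KO and 0.244, 0.396 and 3.41 in WT, so all KO libraries lay above all WT libraries and WT replicate 3 lay nearer to KO than to the other WT libraries. The log2 fold change was 2.18 ± 0.49 (adjusted p = 0.170), with pair ratios of 4.03, 3.08 and 0.67. Its promoter was at -0.08 ± 0.21 and its gene body at 0.22 ± 0.13, so the difference in the window past the gene end was wider than in the other windows of the gene.

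**Figure D5:**
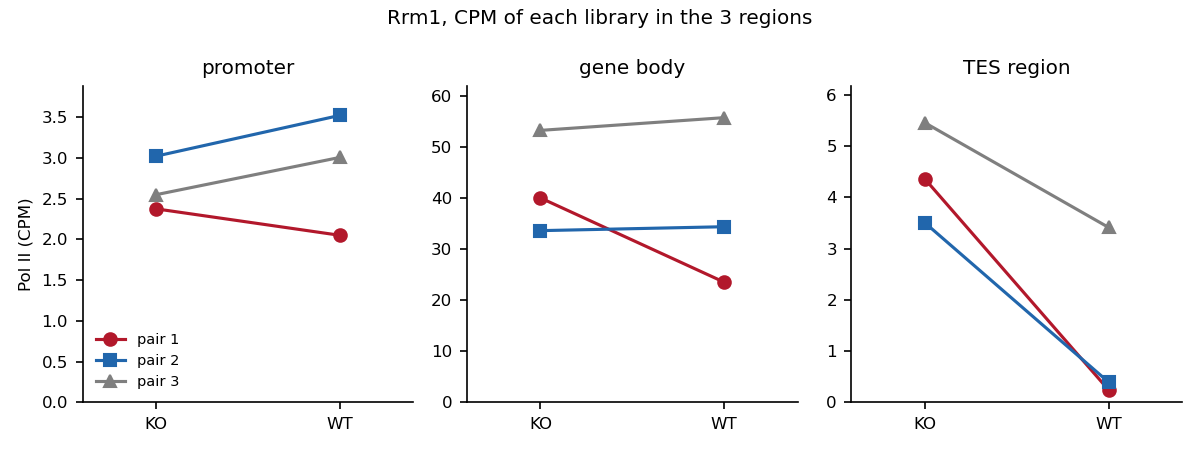
Pol II at Rrm1 in CPM in the promoter, the gene body and the TES region of each library, KO on the left and WT on the right, with lines that join pairs. At the TES region WT replicates 1 and 2 lie at 0.244 and 0.396 CPM, while in the promoter and the gene body the KO and WT libraries overlap.

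Set against its own gene body, the Rrm1 TES region was near the middle of all 12076 genes with enough reads in KO and low in WT. The percentile of the ratio was 52.6, 52.4 and 49.3 in KO replicates 1 to 3, against 5.41, 5.23 and 34.2 in WT replicates 1 to 3. The TES to gene body ratio differed by 2.37 ± 0.41 on the log2 scale (adjusted p = 0.403). For the TES region alone, the adjusted p was 0.0450 with TMM scaling within each kind of region and 0.0825 without X- and Y-linked genes. It was between 8.14e-05 and 0.0569 without pair 1, without pair 3, or without any 1 library of those pairs, and between 0.110 and 1.00 under the other alternatives that gave one.

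Of the genes of chromatin assembly and maintenance, Uhrf1, which brings the maintenance DNA methyltransferase to new DNA, was at p under 0.05 in all 3 regions. Its gene body had 46.4, 38.7 and 59.2 CPM in KO, against 23.3, 37.5 and 54.8 CPM in WT. The pair ratios of 0.99, 0.04 and 0.11 were led by pair 1 (0.37 ± 0.14, adjusted p = 0.516). Its TES region had 7.20, 7.39 and 10.5 CPM in KO, against 3.91, 6.09 and 8.94 CPM in WT (0.45 ± 0.17, adjusted p = 0.500), and its promoter was at 0.55 ± 0.22. Chaf1a and Chaf1b, subunits of the chromatin assembly factor, had gene body values of 0.18 and 0.08, and the TES region of Chaf1b was at 0.53 ± 0.22.

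The G1/S regulators had the highest promoter median of the roles, 0.50. E2f2, an activator of S phase genes, had 3.71, 4.03 and 5.10 CPM at the promoter in KO, against 0.977, 3.05 and 2.36 CPM in WT. The groups did not overlap (0.99 ± 0.27, adjusted p = 0.304), and without KO replicate 2 the adjusted p was 0.0793, in a fit that called 0.206% of all promoters, while over the other alternatives that gave one it lay between 0.148 and 1.00. In its gene body E2f2 had 28.4, 36.0 and 47.3 CPM in KO, against 17.3, 32.4 and 45.0 CPM in WT (0.29 ± 0.11, adjusted p = 0.535). E2f1, the related activator, had 5.72, 4.84 and 4.39 CPM at the promoter in KO, against 2.64, 4.12 and 3.33 CPM in WT, again with no overlap (0.59 ± 0.21, adjusted p = 0.467). The nearest RefSeq start of E2f1 lies 466 bases inside the gene by GENCODE, outside the counted promoter window. The cyclin E genes Ccne1 and Ccne2, which drive entry into S phase, had gene body values of 0.24 and 0.22 and promoter values of 0.40 and 0.21, none at p under 0.05.

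Across regions, 29 of the 50 genes had no region at p under 0.05, 13 had 1, 6 had 2 and 2 had all 3. Those 2 were Mcm4 and Uhrf1. For Mcm4 the ratios of pairs 1 to 3 were 0.71, 0.16 and 0.00085 in the gene body and 1.24, 0.79 and -0.00086 in the TES region. The tally of regions was not made over all genes, so it describes the members alone and does not show whether these counts are unusual. Genes with an E2F match had a median gene body value of 0.25 (n = 15), against 0.18 for those without a match (n = 27), and promoter medians of 0.20 and 0.18, which are descriptions without a test. The searched promoters of Mcm7 (with a match) and E2f1 (without) lie outside the counted promoter windows. That of Cdc6 (with a match) meets its window only at the edge.

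Leaving out pair 3, with its WT library that lacks Y-linked signal, gave a median gene body value of 0.28 and called 3 members, E2f1, Pola1 and Rrm2, against 1.26% of all gene bodies called in that fit. Leaving out KO replicate 3 or WT replicate 3 alone, which takes out the same pair, called these and Uhrf1, against 1.23% and 1.24% of all gene bodies, and leaving out KO replicate 2 called Rrm2, against 0.834%. At the TES regions Rrm1 was called in each of these fits except that without KO replicate 2, and Mcm4 as well without KO replicate 3, in fits that called between 0.363% and 0.446% of all TES regions.

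The balance of Pol II between the start and the body of these genes was near that of all genes. The pausing index, promoter reads over gene body reads on the log2 scale, was tested with limma for 12096 genes. No member was called, against 0.0331% of all genes, 2 were higher in KO at p under 0.05, against 7.05%, and 2 were lower, against 3.65%. The 2 higher were Gins1 (1.07, adjusted p = 0.284) and E2f2 (0.82, adjusted p = 0.288), and the 2 lower were Cdt1 (-0.59, adjusted p = 0.359) and Pold1 (-0.43, adjusted p = 0.449). The member median was 0.02, beside 0.01 over all genes. For the ratio of TES region to gene body, no member was called, against 0.00828%, 2 were higher, against 1.43%, and 1 was lower, against 5.84%. Rrm1 and Chaf1b were the higher ones and Mcm10 the lower one, at -0.69. The member median was -0.07, beside -0.08 over all genes.

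As levels rather than differences, the 50 genes lay near the middle of the table. Per kilobase of gene body the median member had 1.38 CPM, which is percentile 48.8 of 12060 genes with a length. Pcna and Mcm7 were the highest, at 6.78 and 6.73 CPM per kilobase, followed by Rrm2 at 3.81. Those were percentiles 96.5, 96.4 and 91.0, and 24 of the 50 genes were above the median gene. Pola1 and Prim2, which have long gene bodies, were the lowest per kilobase, at 0.71 and 0.83 CPM. In 25 of the 50 gene bodies, 21 promoters and 20 TES regions another annotated gene overlaps the window, and reads of the 2 genes cannot be told apart there, which includes Mcm7 and the microRNA genes within it.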

How the data were processed

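The authors deposited raw read counts per promoter, gene body and TES region and log2 CPM values of the same regions, and the counts were the basis here. Reads were mapped to GRCm38, and the submitters' processing notes list BWA, HOMER, MACS2, Picard, Trimmomatic, limma, edgeR and bcl2fastq 2.20, while the gene annotation is not named in the sources used here. Per the study's methods, genes lacking signal in KO were left out by the authors, and every deposited promoter held at least 25 KO reads, so a promoter lost from KO would not be seen. Counts were scaled by TMM and fitted with limma-voom (R 4.3.3, limma 3.58.1, edgeR 4.0.16, DESeq2 1.42.0), blocked on the replicate pair, with adjustment over 36321 regions. Ratios used limma on log2 ratios with 0.5 added and at least 10 mean counts in both regions. The methods of the study describe replicate pairs, and deviations from the group means correlated within every pair (0.56 to 0.88). Named regions were the 12 with the smallest p and all pairs in 1 direction, plus extremes of level and spread, and the other values follow the members' roles. Members and lists were chosen with earlier results of these data known. Positions are from GENCODE vM21, which matched 12060 of 12107 symbols. No input or spike-in was used here, so values are shares of the reads in these regions.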

Additional observations from a re-analysis of the deposited data

How the results depend on the processing

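The 0 calls among members held with edgeR, DESeq2, other size factors, the library total, a filter on low counts and the deposited log2 CPM. Without the replicate block 0 members and 0 of all regions were called. At TES regions 1 member, Rrm1, was called with TMM within each kind of region, against 0.116% of all TES regions. Without X- and Y-linked genes 1 member, again Rrm1, was called, against 0.111%. When 1 library or 1 pair was left out, the calls ranged from 0 to 4 of 50 gene bodies (0.0496% to 1.26% of all gene bodies). They ranged from 0 to 1 promoters (0.0165% to 2.94% of all promoters) and 0 to 2 TES regions (0.0248% to 0.487% of all TES regions). For the pausing index, Gins1 was called without pair 1 and E2f2 without pair 2, in fits that called 353 and 122 of 12096 genes. For the TES to gene body ratio, Rrm1 was called without pair 1 and without pair 3, in fits that called 59 and 4 of 12076 genes. The remaining fit of each ratio that left out a pair called no member. Of 359 values of the named regions under alternatives, 351 kept their sign and 8 reversed. The gene body of Pola1 ranged from -0.074 to 0.49 over these fits, and that of Gins3 from -0.034 to 0.50. The cause was not tested. At an unadjusted p under 0.05, 13 gene bodies, 8 promoters and 9 TES regions were higher in KO by edgeR (4.70%, 7.32% and 1.45% of all), and 5, 4 and 1 by DESeq2 (2.16%, 2.47% and 0.397%). These counts were 0, 2 and 1 without the replicate block (0.264%, 0.504% and 0.124%), 1, 5 and 2 without pair 1 (5.01%, 8.17% and 2.18%), and 8, 8 and 11 with TMM within each kind of region (4.48%, 6.87% and 3.23%). Leaving out 1 library of a pair takes that pair out of the blocked comparison, so such fits largely repeat the fit without the pair. Promoter and TES counts are small, so their SE (median 0.19 and 0.21 among members) limits what could be called.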
